A study of Mus musculus with 40 samples.

Results

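Complement genes were followed in the renal cortex of diabetic and non-diabetic mice. The 9 genes are C3, C4a, C4b, Cfb, Cfd, Cfi, Cd55, Cd59a and Serping1, taken by symbol from 55401 genes in the count table, and each symbol matched 1 row. The animals were male mice on the C57BL/6J background. In 4 groups the mice were heterozygous for the Ins2-Akita allele, a misfolding insulin mutation that makes the mice diabetic, and in the other 4 they were wild type (WT) littermates. From 6 to 22 weeks of age the mice were gavaged orally with 1 of 4 agents. In the ethanol arm this was 10% ethanol (the vehicle) or MitoGamide at 10 mg/kg daily, a mitochondria-targeted compound aimed at methylglyoxal. In the water arm it was water (the vehicle) or MitoQ, a mitochondria-targeted antioxidant whose dose the labels do not give. With 5 mice in each of 8 groups, 40 libraries were made, 1 per animal. All 8 groups are given here with the same sex, age at tissue collection and daily gavage. The paper describes these for the ethanol arm and does not describe the water arm.

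Complement is a cascade of plasma and cell-bound proteins. The classical and lectin routes cleave C4, the alternative route uses factors B and D (Cfb, Cfd), and all of them converge on C3, the central protein whose cleavage marks a surface for removal. Factor I (Cfi) inactivates the cleaved forms of C3 and C4, C1 inhibitor (Serping1) blocks the first proteases, Cd55 dissociates the C3-cleaving enzymes on the cell surface, and Cd59a blocks the final membrane pore. Much of circulating C3 and C4 comes from the liver, adipose tissue is the main source of factor D, and kidney tubule cells also make complement proteins.

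C4a and C4b are neighbouring, near-identical genes on mouse chromosome 17, and reads between them can be divided only where they differ. In the GENCODE annotation (GRCm38), C4b lay at chr17:34728380-34743882 and C4a at chr17:34809092-34823464, both on the minus strand, and C4a was annotated without a coding sequence. Aligned over 5204 bases, a C4a transcript and the C4b coding sequence were identical at 5003 bases (96.14%). The window below is shown because it holds 13 differing bases, given in capitals, in 60 bases (C4a transcript bases 2755 to 2814, C4b coding bases 2705 to 2764).
C4a: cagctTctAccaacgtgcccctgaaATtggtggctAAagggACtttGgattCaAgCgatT
C4b: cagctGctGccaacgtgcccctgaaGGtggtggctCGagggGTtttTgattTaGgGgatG
Of the 31-base words of C4a, 43.3% also occurred in C4b, and of those of C4b 48.3% occurred in C4a, so their counts depend on how the estimation step divided shared reads. Of the words of Cfb, 75.5% occurred in Gm20547, a transcript model overlapping Cfb, which held at most 70 counts in any library. Cd55 shared 11.2% with Cd55b (at most 2 counts) and Cd59a 8.23% with Cd59b (3 to 34 counts). C3, Cfd, Cfi and Serping1 shared none.

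Total counts per library ranged from 9106654 to 24321424. The labelled tissue was checked against marker genes. The proximal tubule gene Lrp2 was at 1932 CPM or more in every library (CPM: counts scaled to a fixed library total, with trimmed mean of M-values factors over all 40 libraries). Ins2, the mutated gene, had 0 to 2 counts per library, so the genotype labels could not be checked in this tissue. Libraries of the ethanol arm had median correlations with the rest of their group of 0.948 to 0.981 (log2 CPM), against 0.895 to 0.973 in the water arm. The lowest was WT MitoQ replicate 3. A further pair of libraries stood apart on markers. WT water replicate 1 had a summed liver marker level of 497 CPM (at most 90.1 CPM in the others), and Akita MitoGamide replicate 5 had a summed acute-phase level of 678 CPM (at most 194 CPM in the others). In bulk tissue, a change in the number of cells of a type and a change in RNA per cell cannot be told apart.

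Genotype was compared first, in mice given the same agent. In the average over the 4 agents, C3 and Serping1 passed the test as higher in Akita mice, and C4a, Cfb and Cd55 as lower. With the ethanol vehicle, 4 of 8 members tested passed an adjusted p of 0.05 in edgeR's quasi-likelihood test (1 higher, 3 lower), against 16.4% of 17747 genes tested. With MitoGamide, 3 of 8 passed (1 higher, 2 lower), against 14.3% of 16674. These counts hold C4a, which had enough counts to be tested only through the WT group, where it was high. With C4a and C4b summed to 1 gene, 3 members passed with ethanol and 2 with MitoGamide. With water and with MitoQ, 0 of 9 passed, against 0.552% of 18304 and 0.557% of 18143 genes. At an unadjusted p under 0.05 there were 5 members with water and 4 with MitoQ (7.56% and 9.06% of genes), and DESeq2 called 0 and 1. Averaged over the 4 agents, in 40 libraries, 5 of 9 members passed (2 higher, 3 lower), against 22.8% of 17769 genes. Those 5 also hold C4a, tested through the WT mice alone, and with C4a and C4b summed 5 passed, the sum taking the place of C4a. The median log2 fold change over the 9 members was 0.11 in that average, and it was -0.02 over all genes. In 1 fit of all 40 libraries, the ethanol comparison no longer called C3 (edgeR adjusted p = 0.262) or Cfb (edgeR adjusted p = 0.0742). Values of the 2 genotypes did not overlap for 3 members with the ethanol vehicle (12.4% of genes), 3 with MitoGamide (12.4%), 0 with water (2.24%) and 1 with MitoQ (2.54%). C4a is in each of the 3 counts above 0 and is the only member in that with MitoQ, so with C4a set aside they are 2, 2 and 0.

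**Figure D1:**
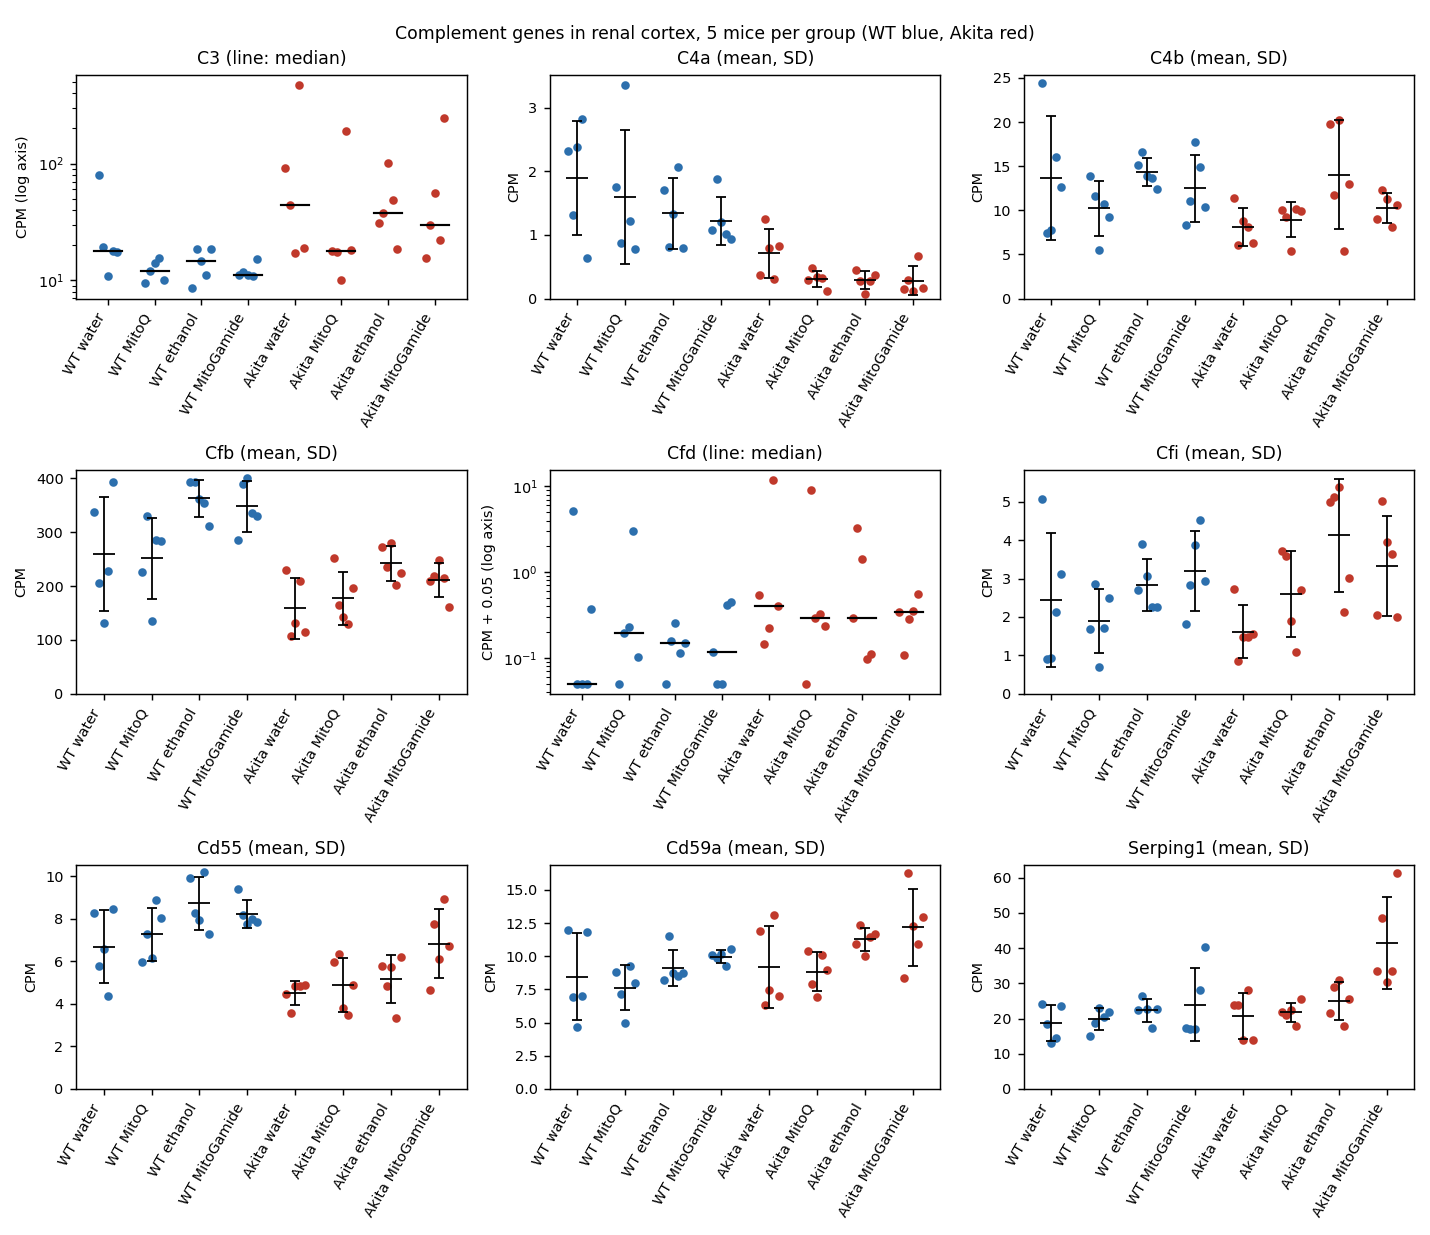
CPM of each gene in every library (points, 5 mice per group, WT blue, Akita red); bars are mean and SD, or lines medians on the log axes used for C3 and Cfd, and 0.05 was added to Cfd for its axis. C4a lies between 0.0727 and 1.25 CPM in Akita libraries and between 0.638 and 3.35 CPM in WT libraries, while C3 in Akita libraries spans 10.0 to 473 CPM.

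C3, the protein on which all routes converge, spread widely among Akita mice. With the ethanol vehicle its levels were 30.8, 37.8, 101, 49.2 and 18.6 CPM in Akita mice and 8.53, 18.7, 14.6, 11.1 and 18.5 CPM in WT mice. The lowest Akita value lay within the WT range and the other 4 lay above it. C3 was 3.30-fold higher (log2 1.72 ± 0.37, SE; edgeR adjusted p = 0.0070), and it passed with each library left out in turn. With MitoGamide the levels were 15.5, 29.7, 55.8, 22.2 and 247 CPM in Akita mice and 11.1, 11.8, 11.2, 10.9 and 15.3 CPM in WT mice, with no overlap. C3 was 6.14-fold higher there (log2 2.62 ± 0.67; edgeR adjusted p = 0.0245). Without Akita MitoGamide replicate 5 it was 2.51-fold higher (edgeR adjusted p = 0.0085), and without any 1 of WT MitoGamide replicates 1 to 4 the edgeR adjusted p was 0.0575 to 0.0619.

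In the water arm the size of the fitted C3 difference depended on single libraries. With water the levels were 91.2, 44.1, 17.0, 473 and 18.9 CPM in Akita mice against 79.5, 19.3, 10.9, 17.8 and 17.3 CPM in WT mice, and the groups overlapped. The fitted log2 fold change was 2.17 ± 0.88 (edgeR adjusted p = 0.555), and 0.63 to 2.97 with 1 library left out. With MitoQ the levels were 17.9, 17.3, 10.0, 190 and 18.2 CPM in Akita mice against 9.41, 11.9, 13.9, 15.5 and 10.0 CPM in WT mice (log2 2.07 ± 0.75; edgeR adjusted p = 0.353), and leaving out 1 library gave log2 0.36 to 2.33. Over the 4 agents C3 was 4.41-fold higher in Akita mice (log2 2.14 ± 0.40; edgeR adjusted p = 9.02e-05), and it passed in each of 40 fits that left out 1 library (log2 1.71 to 2.33). Each such fit removed at most 1 of the Akita libraries with the highest C3 in their groups, so the fold still rested on the others. The median was 30.3 CPM in the 20 Akita libraries and 12.9 CPM in the 20 WT libraries. Of the 20 Akita libraries, 5 lay above every WT library. That count rests on WT water replicate 1 (C3 at 79.5 CPM), the library with the high liver marker level, and without it 12 of 20 lay above every WT library. The 8 acute-phase genes summed to 678 CPM in Akita MitoGamide replicate 5, 194 CPM in Akita water replicate 4, 143 CPM in Akita ethanol replicate 3 and 84.1 CPM in Akita MitoQ replicate 4, the libraries with the highest C3 in their groups. Most of that sum came from the fibrinogen chains. In Akita MitoGamide replicate 5 Fga was at 411, Fgg at 206 and Fgb at 45.6 CPM. Of the other acute-phase genes, Lbp was at 13.8 CPM in that library, its highest level in any library. Hp was at 1.08 and Saa3 at 0.332 CPM there, while Saa1 and Saa2 were at 0. The sum did not pass in any of the 4 genotype comparisons (exact permutation test, adjusted p from 0.163 to 0.696). With group means subtracted, C3 had r = 0.86 with the acute-phase sum and 0.58 with the summed podocyte markers over the 40 libraries, as a description. The podocyte sum did not pass in these comparisons either (exact permutation test, adjusted p from 0.143 to 0.866). The part of either list in the C3 difference was not tested.

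C3 and Cd55 moved in opposite directions, so the 250 bases before the annotated start of each are shown (RefSeq promoters, GRCm38.p6; 4 of the 9 genes were in that table, the others with an entry being Cd59a and Cfd). The C3 sequence is chr17:57228137-57228386 and the Cd55 sequence chr1:130462745-130462994, both on the minus strand, with matches to a searched motif in capitals.
C3: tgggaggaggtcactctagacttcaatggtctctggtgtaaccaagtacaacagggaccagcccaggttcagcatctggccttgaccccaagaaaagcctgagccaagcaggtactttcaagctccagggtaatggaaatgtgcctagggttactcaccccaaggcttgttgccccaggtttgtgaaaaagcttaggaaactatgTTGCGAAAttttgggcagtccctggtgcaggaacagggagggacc
Cd55: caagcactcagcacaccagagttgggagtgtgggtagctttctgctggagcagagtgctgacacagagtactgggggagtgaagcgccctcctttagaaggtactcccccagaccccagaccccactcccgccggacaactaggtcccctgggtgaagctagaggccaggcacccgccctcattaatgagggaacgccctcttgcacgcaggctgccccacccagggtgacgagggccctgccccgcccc
Of 4 motifs searched on both strands, 2 were TTGCNNAA (C/EBP) and TTCNNNGAA (STAT), and the other two were an NF-kB and an ISRE motif, given by name alone. The C3 window held 1 match to TTGCNNAA, which 9.56% of 32851 promoter windows of this length hold, and neither printed window held another match. Of the windows not printed, that of Cd59a held 1 match to the ISRE motif and that of Cfd none. TTCNNNGAA occurred in 7.02% of windows, the NF-kB motif in 4.65% and the ISRE motif in 2.98%. A match describes letters only and is not a binding site.

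C4a, the copy without an annotated coding sequence, was at a lower mean in Akita mice with each agent. Given ethanol, it was at 0.441, 0.269, 0.0727, 0.282 and 0.368 CPM in Akita mice and at 1.71, 0.813, 1.33, 2.06 and 0.788 CPM in WT mice, with no overlap, and it fell by 2.13 ± 0.38 on the log2 scale (edgeR adjusted p = 0.0021). With MitoGamide the Akita levels were 0.147, 0.292, 0.118, 0.669 and 0.166 CPM and the WT levels 1.08, 1.88, 1.2, 1.01 and 0.931 CPM, again with no overlap, and C4a fell by 2.10 ± 0.42 (edgeR adjusted p = 0.0084). With MitoQ the ranges were 0.123 to 0.474 CPM and 0.779 to 3.35 CPM, also apart, with a log2 fold change of -2.26 ± 0.50 (edgeR adjusted p = 0.0761). Without WT MitoQ replicate 3 this was -1.83 (edgeR adjusted p = 0.0446). That was the only 1 of 9 tested fits with 1 library left out that passed (edgeR adjusted p up to 0.205). With water the ranges overlapped, 0.302 to 1.25 CPM against 0.638 to 2.82 CPM, and the log2 fold change was -1.43 ± 0.52 (edgeR adjusted p = 0.435). Over the 4 agents C4a fell by 2.01 ± 0.25 (edgeR adjusted p = 8.51e-08), and 16 of 20 Akita libraries lay below every WT library. These levels rest on few reads, 1 to 14 counts in an Akita library and 10 to 46 in a WT library. In all 4 comparisons the Akita mean, 4 to 9.4 counts, lay under the 10 counts asked of a tested gene, so C4a was tested only through its WT counts (means of 16.8 to 27.8), and the calls are no independent support of a difference. With MitoGamide it was tested in 7 of 10 fits that left out 1 library, and it passed in those 7. Without a filter on counts it passed with ethanol and MitoGamide as well.

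C4b, the coding partner of C4a, did not pass in any genotype comparison as counted. With the ethanol vehicle Akita mice had 14 ± 6.19 CPM and WT mice 14.4 ± 1.61 CPM (SD, n = 5), and the log2 difference was -0.04 ± 0.26. The Akita values there ran from 5.36 to 20.3 CPM and enclosed the whole WT range. With water the levels were 8.11 ± 2.16 and 13.7 ± 6.99 CPM (log2 -0.71 ± 0.29; edgeR adjusted p = 0.567). Over the 4 agents the log2 fold change was -0.32 ± 0.14 (edgeR adjusted p = 0.0839). With the counts of C4a and C4b summed, which removes the division of shared reads between them, it was -0.14 ± 0.25 with ethanol (edgeR adjusted p = 0.766), -0.38 ± 0.18 with MitoGamide (edgeR adjusted p = 0.166) and -0.43 ± 0.13 over the 4 agents (edgeR adjusted p = 0.0104).

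Cfb, the protease-bearing factor of the alternative route, was the member with the highest mean count over the 40 libraries. In mice given the ethanol vehicle it was at 272, 235, 279, 202 and 224 CPM in Akita mice and at 393, 394, 362, 354 and 312 CPM in WT mice, and the groups did not overlap. Cfb fell by 0.58 ± 0.10 on the log2 scale (edgeR adjusted p = 0.0014). With MitoGamide it was at 210, 219, 248, 216 and 162 CPM against 285, 390, 401, 336 and 330 CPM, and it fell by 0.73 ± 0.12 (edgeR adjusted p = 0.0026). In the water arm the ranges overlapped: 107 to 230 CPM against 131 to 394 CPM with water, and 130 to 252.3 CPM against 135 to 330 CPM with MitoQ. The log2 fold changes there were -0.68 ± 0.28 (edgeR adjusted p = 0.547) and -0.51 ± 0.21 (edgeR adjusted p = 0.462). Averaged over agents, Cfb fell by 0.64 ± 0.10 (edgeR adjusted p = 4.42e-06). The summed level of proximal tubule markers was 11613 CPM in Akita against 14044 CPM in WT mice with ethanol, and 10449 against 13443 CPM with MitoGamide (exact permutation test, two-sided, adjusted over 18 lists, p = 0.0952 and 0.0357). The mean of their log2 levels, which weights each marker equally, differed less, by -0.08 and -0.13 (exact permutation test, adjusted p = 0.631 and 0.429). Across the 40 libraries, with group means subtracted, Cfb and the sum had r = 0.91, as a description. Its part in the Cfb difference was not tested.

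Cfd, factor D or adipsin, was near 0 in most libraries and high in a few. The highest levels were 11.9 CPM in Akita water replicate 4, 9.08 CPM in Akita MitoQ replicate 2, 5.15 CPM in WT water replicate 1, 3.23 CPM in Akita ethanol replicate 2 and 2.94 CPM in WT MitoQ replicate 4. Its median over 40 libraries was 0.180 CPM, and 8 libraries had 0 counts. Cfd fell under the mean of 10 counts in 2 of the 4 genotype comparisons and was not tested there. With ethanol it was tested in 8 of 10 fits that left out 1 library, and 2 of them passed (edgeR adjusted p from 0.0272 to 0.114). Its mean with ethanol was 17.2 counts in Akita and 2 in WT mice, so those fits tested it only through the Akita group. Over the 4 agents the log2 fold change was 1.63 ± 0.77 (edgeR adjusted p = 0.129). With 1 library left out it ran from 0.80 to 2.52 (edgeR adjusted p from 0.0170 to 0.497). Cfd passed in 2 of 40 such fits, those without WT water replicate 1 and without WT MitoQ replicate 4. Mean counts were 2 to 15.2 in the WT groups and 3.8 to 58 in the Akita groups, and the WT mice alone would not have met the filter. In the average Cfd was thus tested only through the Akita mice, where it was high, and these passes are no independent support of a difference. The adipocyte gene Adipoq was at 1.94, 1.76, 1.30, 0.646 and 1.30 CPM in those 5 libraries, in the order given, and at most 0.244 CPM in the other 35. Adipoq is 1 of 6 genes in the adipocyte list and was singled out after its values were seen, and the other genes followed Cfd in part. Plin1 was at 1.16, 2.24, 4.57, 0.377 and 1.96 CPM in the same libraries and at most 0.788 CPM in the other 35, and Cidec at 1.68, 1.42, 3.48, 0.7 and 1.71 CPM and at most 0.727 CPM. Lep was at 0 in 2 of those 5 libraries, and Retn was highest, at 1.17 CPM, in WT water replicate 4, where Cfd was at 0. Fabp4 made up most of the summed list, whose highest group mean, 30.9 CPM, was in Akita MitoGamide, where Cfd was at 0.277 CPM. Across the 40 libraries Cfd and the sum had r = 0.57, or 0.59 with group means subtracted, as a description. The part of these genes in the Cfd levels was not tested.

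Cfi, the protease that inactivates C3b and C4b, did not pass in a genotype comparison. With the ethanol vehicle the level was 4.12 ± 1.47 CPM in Akita mice, against 2.84 ± 0.686 CPM in the WT (log2 0.53 ± 0.25; edgeR adjusted p = 0.176). Of 10 fits that left out 1 library, only that without Akita ethanol replicate 4 passed (edgeR adjusted p from 0.0379 to 0.334). With water the levels were 1.62 ± 0.685 and 2.43 ± 1.74 CPM (log2 -0.52 ± 0.46).

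Among the regulators on the cell surface, Cd55 was lower in Akita mice. Under ethanol it was at 5.78, 4.85, 5.74, 3.34 and 6.19 CPM in Akita mice and at 9.91, 8.29, 7.96, 10.2 and 7.29 CPM in WT mice, with no overlap. It fell by 0.75 ± 0.16 on the log2 scale (edgeR adjusted p = 0.0059) and passed with each library left out. With MitoGamide the Akita levels, 4.64 to 8.92 CPM, overlapped the WT levels, 7.76 to 9.39 CPM (log2 -0.28 ± 0.16; edgeR adjusted p = 0.244). With water and MitoQ the log2 fold changes were -0.54 ± 0.19 and -0.59 ± 0.18 (edgeR adjusted p = 0.394 and 0.255). Averaged over agents, Cd55 fell by 0.55 ± 0.09 (edgeR adjusted p = 4.93e-06).

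Cd59a, which blocks the membrane pore, measured 11.3 ± 0.867 CPM in Akita mice, against 9.15 ± 1.36 CPM in the WT, with the ethanol vehicle (log2 0.31 ± 0.10; edgeR adjusted p = 0.0502). DESeq2 gave an adjusted p of 0.0486 for the same comparison. Over the 4 agents the log2 fold change was 0.22 ± 0.09 (edgeR adjusted p = 0.0641).

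Serping1, the inhibitor of the first proteases, rose in the average over the 4 agents by a log2 fold change of 0.30 ± 0.11 (edgeR adjusted p = 0.0486), a call that 23 of 40 refits with 1 library left out kept. With MitoGamide it was at 33.6, 48.5, 30.3, 33.5 and 61.2 CPM in Akita mice and at 17.2, 16.9, 17.1, 28.1 and 40.5 CPM in WT mice. The groups overlapped through WT replicate 5 (log2 0.78 ± 0.27; edgeR adjusted p = 0.0742). Of 10 fits that left out 1 library, only that without WT replicate 5 passed (edgeR adjusted p from 0.0161 to 0.164). With the other 3 agents the log2 fold changes were 0.11 to 0.19 (edgeR adjusted p from 0.494 to 1.00). With MitoGamide the fibroblast markers summed to 172 CPM in the Akita group, against 110 CPM in the WT group (exact permutation p = 0.0397, adjusted over 18 lists 0.143). Of the 18 lists, 4 passed in that comparison (exact permutation, adjusted p = 0.0357 each): the adipocyte (30.9 against 14 CPM), principal cell (213 against 98.6 CPM) and distal tubule sums (1509 against 968 CPM) were higher in Akita mice and the proximal tubule sum was lower. With each marker weighted equally, 0 of the 18 lists passed (lowest exact permutation adjusted p 0.0714), and the adipocyte log2 difference went from 1.13 to 0.18. With group means subtracted, the correlation of Serping1 with a summed list over the 40 libraries was 0.65 for injured tubule, 0.64 for fibroblast, 0.59 for acute-phase, 0.50 for endothelial and 0.47 for podocyte and for adipocyte markers, as a description. The part of these markers in the Serping1 values was not tested.

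**Figure D2:**
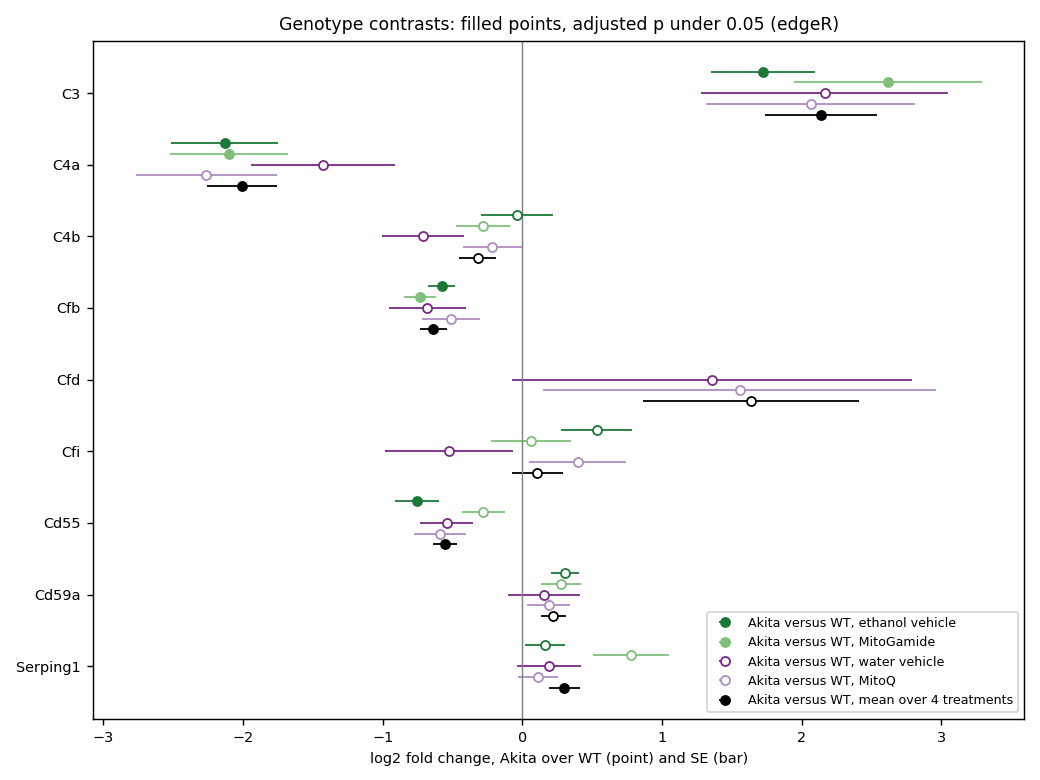
Log2 fold change of Akita over WT (points) with SE (bars) for each gene with each agent and averaged over the 4 agents; filled points have an edgeR adjusted p under 0.05. C3 is right of 0 and C4a, Cfb and Cd55 left of 0 in all 5 comparisons.

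The effect of the compounds was then compared within genotype. MitoGamide and its vehicle differed in 0 of 8 members tested in Akita mice (1.26% of 17051 genes passed), and 0 of 8 in WT mice (0% of 17395). MitoQ and water differed in 0 of 8 members in Akita mice (0% of 18496) and 0 of 9 in WT mice (0% of 17881). At an unadjusted p under 0.05 edgeR gave 1, 0, 0 and 1 members in these comparisons, in that order, and DESeq2 called 1, 0, 0 and 0. The member behind the DESeq2 call was Serping1, at 33.6, 48.5, 30.3, 33.5 and 61.2 CPM in Akita mice given MitoGamide and 21.7, 29.1, 31, 17.8 and 25.4 CPM in Akita mice given ethanol. The log2 fold change was 0.73 ± 0.21 (edgeR adjusted p = 0.0944, DESeq2 adjusted p = 0.0234), and the ranges met at 30.3 and 31 CPM. Between the same groups the summed fibroblast markers were at 172 and 127 CPM, the endothelial markers at 295 and 209 CPM and the adipocyte markers at 30.9 and 19.8 CPM (exact permutation p = 0.0159, 0.0079 and 0.0238, each 0.143 adjusted over 18 lists). The mean of log2 levels differed by 0.35, 0.51 and -0.01 for these lists, so the adipocyte difference did not hold with each marker weighted equally, and their part in the Serping1 values was not tested. These comparisons use the same libraries as the genotype comparisons above.

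The vehicles themselves were also compared. In Akita mice, Cfi was the 1 of 8 members tested that passed (12.7% of 17928 genes), at 5.0, 5.12, 5.38, 2.12 and 3.0 CPM with ethanol and 2.74, 0.864, 1.49, 1.47 and 1.55 CPM with water. The log2 fold change was 1.2 ± 0.31 (edgeR adjusted p = 0.0361), and with single libraries left out, 3 of the 10 refits kept the call. Between the same groups the summed proximal tubule markers were at 11613 and 8805 CPM (exact permutation, adjusted over 18 lists, p = 0.167), and the lowest adjusted p, 0.0714, was shared by the thick ascending limb (1345 and 1030 CPM), endothelial (209 and 155 CPM), distal tubule (1309 and 1660 CPM) and adrenal cortex (4.05 and 5.54 CPM) sums. Cfi and the proximal tubule sum had r = 0.66 across the 40 libraries with group means subtracted, as a description. The part of these markers in the Cfi difference was not tested. In WT mice 0 of 8 members passed (0% of 18092 genes), with 1 at an unadjusted p under 0.05 and 0 by DESeq2. The 2 arms were given different liquids, and their libraries also differed in how alike they were, so arm and vehicle cannot be told apart.

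Whether an effect differed between groups was tested directly. The Akita effect with ethanol against that with water differed in 0 of 9 members (0% of 18050 genes). The MitoGamide effect in Akita against WT mice differed in 0 of 8 (0% of 17256), and the MitoQ effect in 0 of 9 (0% of 18225). At an unadjusted p under 0.05 edgeR gave 0 members in each, and DESeq2 called 0 in each. For Cfi, the difference in the Akita effect between vehicles was 1.05 ± 0.54 on the log2 scale (edgeR adjusted p = 1.00), and for Cd55 the difference in the MitoGamide effect was 0.46 ± 0.23 (edgeR adjusted p = 0.605).

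The order of the 8 group means was read against the larger SD of each pair of neighbours. Of 7 neighbouring pairs per gene, 2 differed beyond it for C4a, 1 for Cd59a, 1 for Serping1 and 0 for the other 6 genes. For C4a the 4 WT groups came first, from 1.89 CPM (WT water) to 1.22 CPM (WT MitoGamide), then Akita water at 0.71 CPM and the other 3 Akita groups at 0.278 to 0.311 CPM. The 2 steps beyond the SD were those on either side of Akita water. For Serping1 Akita MitoGamide stood above the next group, at 41.4 ± 13.1 against 25 ± 5.38 CPM. For C3 the 4 Akita groups came first, from 129 CPM (water) to 47.5 CPM (ethanol), with no step beyond the SD. This order of means rests on single libraries. In Akita MitoQ replicate 4 was at 190 CPM and the others at 10.0 to 18.2 CPM. The median of that group was 17.9 CPM, against 17.8 CPM in WT water. The ratio of the highest to the lowest group mean was 27.2 for Cfd, 10.7 for C3, 6.80 for C4a and 1.59 to 2.54 for the other 6 genes. With 1 library left out it ran from 20.5 to 38.5 for Cfd, from 6.15 (without Akita water replicate 4) to 13.0 for C3 and from 5.96 to 10.5 (without Akita MitoGamide replicate 4) for C4a. The Cfd ratio rests on single libraries, Akita water replicate 4 at 11.9 CPM and, without it, Akita MitoQ replicate 2 at 9.08 CPM. The Cfd median was 0.357 CPM in Akita water and 0.0985 CPM in WT ethanol.

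Levels between genes were compared per length, in WT mice given ethanol, by dividing counts by the mean transcript length and rescaling each library to the same total as in CPM. Cfb stood at 219 ± 12.5, Serping1 at 16.4 ± 2.67, C3 at 9.17 ± 3.23, Cd59a at 6.97 ± 1.03, C4b at 6.61 ± 0.565 and Cd55 at 5.49 ± 0.631 (SD, n = 5). Cfi was at 2.19 ± 0.480, C4a at 0.577 ± 0.224 and Cfd at 0.113 ± 0.0875. The steps from C3 to Cd59a and from Cd59a to C4b were smaller than the larger SD of the pair, and the others were not. With the length of the merged exons instead, C3 was at 3.99 and C4b at 3.57, below Cd59a at 7.17, and Cd55 was at 2.54 and C4a at 0.302, so these levels depend on the length used.

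For each member, the 3 genes with the most similar pattern over 40 libraries were found by Pearson's r of log2 CPM among 17769 genes, as a description; the libraries share groups and sequencing depth. The closest gene to C3 was Gc, the vitamin D-binding protein, with r = 0.93, and r stayed at 0.93 with group means subtracted. Gsta4 (r = 0.88) and Nupr1 (r = 0.85) followed. For Cfb the closest were Pecr and Amacr, enzymes of peroxisomal lipid metabolism, and Fhl1, all at r = 0.94, and 0.85 to 0.87 with group means subtracted. For Serping1 they were Bgn, a matrix proteoglycan (r = 0.92), C1s1, a protease that C1 inhibitor blocks (r = 0.89), and Pdgfra (r = 0.87). For C4a they were Aspdh, Tmprss9 and Pard3 (r = 0.86, 0.85 and 0.84), which fell to 0.70, 0.58 and 0.53 with group means subtracted. For Cd55 they were Tc2n, Cpe and Lipo3 (r = 0.84, 0.81 and 0.80, or 0.57, 0.41 and 0.48 within groups). For Cd59a they were Mal, Tspan8 and Ctsd (r = 0.86, 0.85 and 0.85), and for Cfi Tmem120a, Phb2 and Blmh (r = 0.82, 0.82 and 0.81). For C4b they were Ttc36, Tgtp1 and H2-Ke6 (r = 0.70, 0.70 and 0.68), and for Cfd Postn, Ppp1r3b and F13a1 (r = 0.73, 0.63 and 0.57). Among the members themselves, within groups, r was highest for Cfb and Cfi (0.76) and C4b and Cfi (0.67). Next came Cfb and Cd59a (0.59), C3 and Cd59a (0.54) and C4b and Cfb (0.53). The lowest r was -0.53, for C4a and Cfb, and C3 and Serping1 had 0.43.

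**Figure D3:**
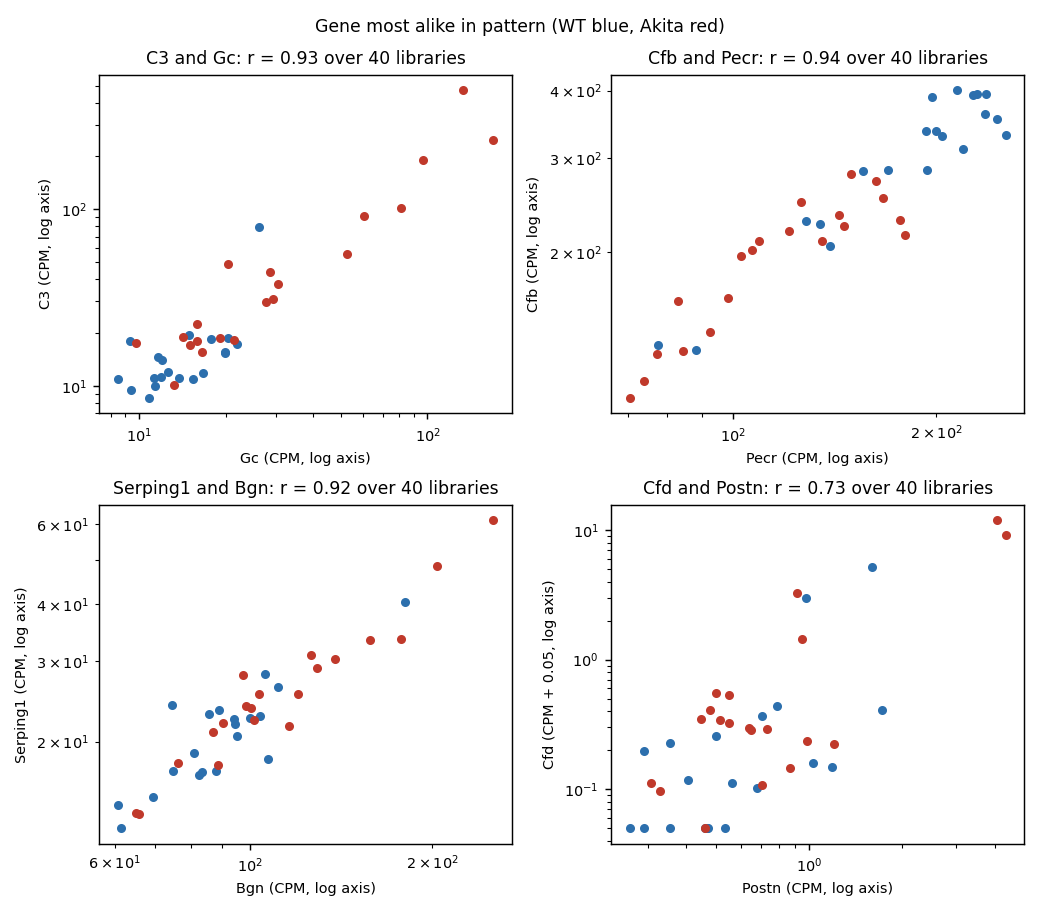
Each of C3, Cfb, Serping1 and Cfd against the gene most alike in pattern, in CPM on log axes (1 point per library, WT blue, Akita red; 0.05 added to Cfd). The Akita libraries with C3 above 100 CPM are also those with the most Gc, up to 169 CPM, and the pair Cfd and Postn rests on a few libraries.

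The other genes of the cascade were read from a list of 50, of which 31 had enough counts in the average over the 4 agents. Of these, 6 rose in Akita mice and 5 fell (edgeR adjusted p under 0.05), and 20 did not pass, against 22.8% of 17769 genes passing. The median log2 fold change over them was -0.08. In the lectin route, Masp1, a protease of that route, rose from 1.56 ± 0.472 CPM in 20 WT to 3.31 ± 1.37 CPM in 20 Akita mice (log2 1.00 ± 0.12; edgeR adjusted p = 7.4e-08). In the terminal route C7, a part of the membrane pore, rose (log2 0.67 ± 0.14) and C8a, another part, fell by 0.83 ± 0.19. Of the fluid-phase regulators, Clu, which binds the nascent pore, rose from 132 ± 31.6 to 189 ± 52.1 CPM (log2 0.49 ± 0.10), and Cpn1, a carboxypeptidase that trims the anaphylatoxins, rose from 33.1 ± 5.99 to 48.4 ± 8.26 CPM (log2 0.54 ± 0.06). Of the membrane regulators Susd4 and Csmd1 rose (log2 0.26 ± 0.07 and 0.32 ± 0.11) and Cr1l fell by 0.12 ± 0.04. Of the receptors, the integrin chains Itgax and Itgb2, used by leukocytes, fell by 0.70 ± 0.13 and 0.43 ± 0.10, and in the classical route C1rl fell by 0.27 ± 0.08 while C1qa, C1qb, C1qc, C1ra, C1s1 and C2 did not pass. The summed macrophage markers were 32.0 to 43.9 CPM in the 4 Akita groups, as group means, and 48.3 to 53.2 CPM in the 4 WT groups, and their part in the integrin changes was not tested. With single agents, 5 of 32 tested passed with ethanol (16.4% of all genes), 5 of 30 with MitoGamide (14.3%), 1 of 30 with MitoQ (0.557%) and 0 of 33 with water (0.552%), each of them higher in Akita mice. The counts with ethanol and MitoGamide include Cpb2 (log2 2.59 and 2.20), at 0.514 CPM on average, which had enough counts to be tested there only through the Akita group and too few in the average. For the compounds 0 of these genes passed. C8g, chosen after its values were seen, passed between the vehicles in Akita mice (log2 0.58).

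**Figure D4:**
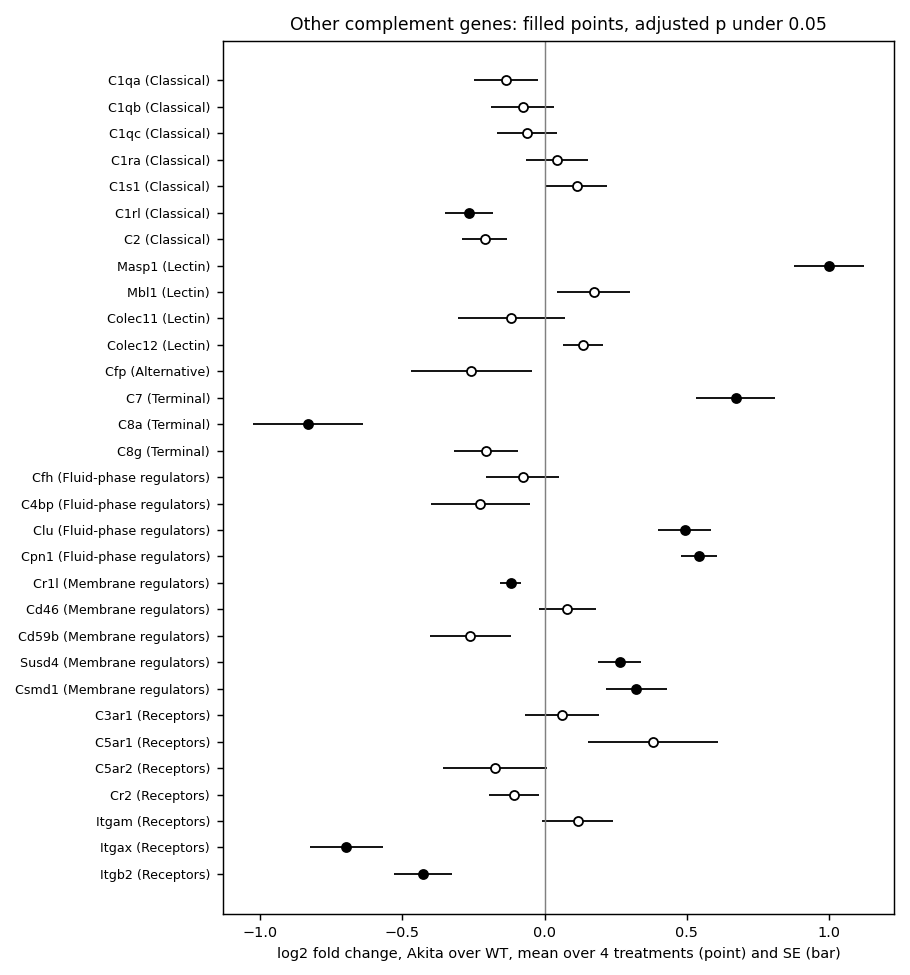
Log2 fold change of Akita over WT averaged over the 4 agents (points) with SE (bars) for the 31 other complement genes tested, by role; filled points have an edgeR adjusted p under 0.05. Masp1 and C7 are furthest to the right, and C8a and Itgax furthest to the left.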

How the data were processed

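Total RNA from renal cortex of 40 individual mice was depleted of ribosomal RNA and sequenced as single reads from directional libraries. The authors trimmed reads with Skewer, estimated transcript abundance with kallisto 0.46.1 against GENCODE mouse release 25 (GRCm38), summed transcripts to genes in R 4.0.2 and deposited these estimated counts, whole numbers without scaling between libraries; 0 columns were left unmapped. The 9 genes and all lists were chosen with earlier results of these data known. Here each comparison was fitted on its own groups with edgeR 4.0.16 in R 4.3.3 (quasi-likelihood F-test, trimmed mean of M-values, a mean of 10 counts or more per gene, Benjamini-Hochberg over all genes, adjusted p under 0.05), the average over agents on 40 libraries. The study's DESeq2 (here 1.42.0) was an alternative. The SE is the log2 fold change over the root of the F statistic. The test script was tested on simulated data. Log2 CPM used a prior count of 0.5. Marker sums were compared by exact two-sided permutation, 252 splits, smallest p 0.00794. Lengths and positions came from GENCODE release 21, in which 99.5% of gene IDs matched. The replicates are separate animals. Depth was 9106654 to 24321424 counts. Named genes were the 9 members, other complement genes with an adjusted p under 0.05 between genotypes or for a compound, and the 3 genes most alike in pattern to each member. Alternatives were another scaling, other filters, one fit of all libraries, a replicate block, C4a and C4b summed, and each library left out. An added covariate and the omission of 2 libraries were chosen after seeing the data.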

Additional observations from a re-analysis of the deposited data

Results flagged for a closer look

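Gaps within groups of 5 were measured on log2 CPM for each of the 9 genes in each of the 8 groups, 72 in all. In 6 of them 1 library lay far from the other 4, with a gap to the nearest above 0.71 of the group's range; chance gives about 1 in 20, or 3.6 of 72. For C3 these were WT water replicate 1 at 79.5 CPM (the other 4 at 10.9 to 19.3), WT MitoGamide replicate 5 at 15.3 CPM (10.9 to 11.8) and Akita MitoQ replicate 4 at 190 CPM (10.0 to 18.2). For C4b it was Akita MitoQ replicate 3, low at 5.41 CPM (9.22 to 10.2). For Cfd it was Akita water replicate 4 at 11.9 CPM (0.0960 to 0.487), and for Cd59a WT ethanol replicate 2 at 11.5 CPM (8.20 to 8.77).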

How the results depend on the processing

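The number of members called between Akita and WT mice with ethanol was 4, and 2 with all 40 libraries in one fit, where C3 and Cfb no longer passed. With water it was 0, against 1 with all 40 libraries in one fit and 2 with the main axis of within-group differences as a covariate, an alternative chosen after seeing the data. With MitoGamide it was 3, and 1 to 3 with 1 library left out. With MitoQ it was 0, against 1 by DESeq2, 1 with all 40 libraries in one fit, 2 with the covariate and 0 to 1 with 1 library left out. For MitoGamide against ethanol in Akita mice it was 0, and 1 by DESeq2. For ethanol against water in Akita mice it was 1, against 2 by DESeq2, 0 with at least 10 counts in every library, 0 with the replicate block, 3 with the covariate and 0 to 2 with 1 library left out; in WT mice it was 0, and 1 with the covariate. In the average over the 4 agents it was 5, and 8 with the covariate. The cause of these shifts was not tested.

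The log2 fold change of C3 for MitoGamide against ethanol in Akita mice was 0.64, and it was -0.16 with the replicate block and -0.63 to 1.12 with 1 library left out. With 1 library left out, C3 ranged from -3.04 to 0.20 for MitoQ against water and from -2.0 to 0.023 for ethanol against water in Akita mice, and from -1.21 to 1.09, -0.38 to 1.37 and -1.81 to 1.42 for the differences of the Akita effect between vehicles, of the MitoGamide effect and of the MitoQ effect. Cfd ranged from -1.83 to 4.93 between genotypes with water, from -3.90 to 2.67 for MitoQ and from -2.89 to 1.63 for ethanol against water in Akita mice, where it was 0.069 with the covariate against -1.59 without, and from -1.80 to 2.30 and -3.39 to 3.36 for the differences of the Akita effect between vehicles and of the MitoQ effect. Serping1 ranged from -0.15 to 0.22 for MitoGamide and C4b from -0.17 to 0.29 for ethanol against water in WT mice. None of these values passed the test as reported.

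In no comparison did all 5 same-numbered pairs of mice have a correlation over 0.1 (r from -0.41 to 0.61, over 0.1 in 10 of 50 pairs). That rule cannot show whether single numbers share a batch. Between groups of the water arm, replicate 3 had r of 0.36, 0.32, 0.35 and 0.53. Replicate 4 had r of -0.38, -0.26, -0.098 and -0.22 there, and the other numbers were of both signs. What the replicate number stands for was not tested. The block ended the call of Cfi between vehicles in Akita mice. Serping1 in the average was lost without a filter on counts and without the 2 libraries WT MitoQ replicate 3 and Akita MitoGamide replicate 5 (0.27, edgeR adjusted p = 0.0630). C4a had 1 to 14 counts in Akita libraries, which limits its precision.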
